A study of Mus musculus with 10 samples.

Results

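Glypicans and syndecans are the cell-surface proteins that carry heparan sulfate. The genes were chosen by name, as the 6 mouse glypicans (*Gpc1* to *Gpc6*) and the 4 syndecans (*Sdc1* to *Sdc4*). Of these 10 genes, 9 are among the 29268 genes of the table, and all 9 were among the 16993 genes tested. *Gpc5* was not analysed here. All 9 have the coordinates of the table in GENCODE M21 as well, on the mouse build GRCm38.

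The data were RNA-seq of whole uteri from 5 HSD17B1TG mice and 5 WT mice, all 4-month-old females, each sequenced as its own library. HSD17B1TG mice are heterozygous for a human HSD17B1 cDNA driven by the chicken beta-actin promoter with a cytomegalovirus enhancer, which is active in nearly every tissue, on the FVB/N background that the WT mice share. HSD17B1 is the enzyme that reduces estrone to estradiol. The transgenic females do not cycle, whereas the WT mice do, and the labels do not give their cycle phase. The animals are numbered TG1-TG5 and WT1-WT5 in the order of their records, a numbering that pairs none of them.

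The libraries held between 14817228 and 23271988 counts on genes, and 3 counts in the smallest library amount to 0.202 CPM, the count scaled to the total of the library. Only counting error enters that limit. The share of counts on mitochondrial genes was 1.94% to 7.57% in HSD17B1TG and 2.58% to 3.37% in WT. The transgene is a human cDNA and was not measured separately here, so the genotypes rest on the labels. Of 8 genes that define the uterus, all were expressed, and *Hoxa10*, *Hoxa11* and *Msx1* passed all thresholds as lower in HSD17B1TG.

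Glypicans hang on the outer leaflet of the membrane by a lipid anchor, and syndecans span the membrane with a short cytoplasmic tail. Their heparan sulfate chains bind growth factors and morphogens such as fibroblast growth factors, hedgehogs and Wnts, and hold them near or away from their receptors. In the uterus, such signals pass between the stroma and the epithelium through the estrous cycle and at implantation. In whole tissue, fewer cells of a type and less RNA per cell cannot be told apart.

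The comparison asks which genes differ in the uterus of mice that carry the transgene. Among the glypicans and syndecans, *Gpc1* was 4.57-fold lower in HSD17B1TG than in WT, and *Sdc4* was 1.52-fold lower. No member was higher with an adjusted p under 0.05. The fitted log2 fold change was negative for 8 of the 9 genes and positive for *Sdc3*, with a median of -0.31, against 0.00 over all genes tested. A gene was called when its adjusted p was under 0.05 (edgeR quasi-likelihood test, Benjamini-Hochberg over all genes tested), its fold change was over 2 and its mean FPKM, the number of fragments scaled to gene length and library size, was over 1 in either group. By these thresholds 1 of 9 genes was called down, *Gpc1*, where 2.08% of all genes tested were called down, and 0 of 9 were called up by edgeR, where 2.16% were. With the adjusted p alone, 2 of 9 were lower, against 2.81% of all genes, and 0 of 9 were higher, against 3.34%. At an unadjusted p under 0.05, 0 of 9 were higher, and the share of all genes at that threshold was not computed. DESeq2 and limma called 0 of 9 up as well, where DESeq2 called 906 of all genes up and the limma settings 416 to 1083. In the same 2 genes, *Gpc1* and *Sdc4*, every HSD17B1TG mouse lay below every WT mouse in FPKM, which held for 2.65% of all genes. With so few members, these counts describe the 9 genes one by one.

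**Figure D1:**
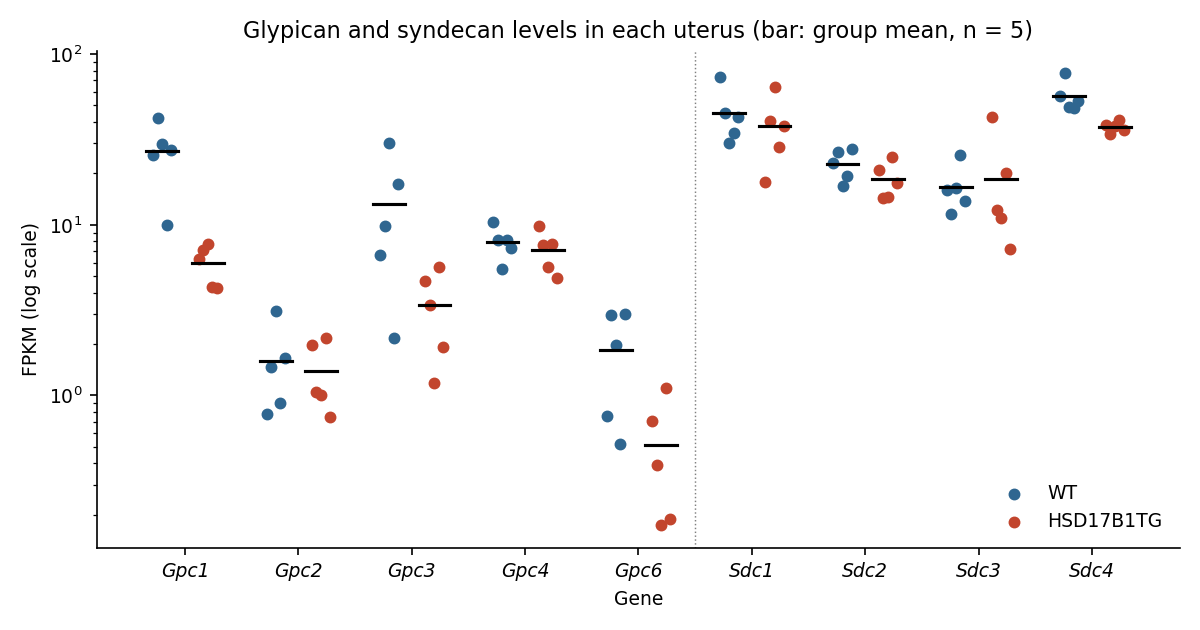
FPKM of each glypican and syndecan in each uterus on a log axis, with 1 point per mouse, WT to the left and HSD17B1TG to the right for each gene, and a bar at each group's mean. The groups are apart for *Gpc1* and *Sdc4* and overlap for the other 7 genes.

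*Gpc1* encodes glypican-1, a carrier of heparan sulfate that binds fibroblast growth factors. The gene (ENSMUSG00000034220) lies on the plus strand at chr1:92831645-92860779. Its level in the WT uteri was 25.5, 42.2, 29.6, 9.95 and 27.5 FPKM in WT1 to WT5. In the HSD17B1TG uteri it was 6.27, 7.08, 7.70, 4.34 and 4.27 FPKM in TG1 to TG5. The groups did not overlap, but WT4 lay far under the other WT mice and nearest to the transgenic ones. The means were 5.93 ± 1.57 FPKM in HSD17B1TG and 27.0 ± 11.5 FPKM in WT (SD, n = 5 each). Its log2 fold change was -2.19 with a standard error of 0.341 and a 95% interval from -2.94 to -1.44 (edgeR quasi-likelihood test, Benjamini-Hochberg adjusted p = 0.0177). By its p, *Gpc1* ranked 49 among the 16993 genes tested. An exact permutation test, two-sided and on log2(FPKM + 1), gave p = 0.00794, the smallest that 5 mice against 5 allow. Without TG5 the adjusted p of the edgeR test was 0.0508, with a log2 fold change of -2.09, and it was under 0.05 when any other single mouse was left out.

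*Gpc3* and *Gpc6* had negative changes that missed the threshold, with wide spread among the mice. *Gpc3*, glypican-3, binds hedgehog proteins and is known for the overgrowth that follows its loss. It lies on the minus strand at X:52272426-52613950 (ENSMUSG00000055653). Its level was 6.62, 9.84, 30.03, 2.18 and 17.2 FPKM in WT1 to WT5, and 4.71, 3.38, 1.19, 5.69 and 1.91 FPKM in TG1 to TG5. The WT mice spanned a 13.8-fold range, and WT4 fell inside the range of the transgenic mice. The fit gave a log2 fold change of -1.97 with a 95% interval from -3.40 to -0.54, and it missed the threshold (edgeR, Benjamini-Hochberg adjusted p = 0.0869). Without WT4 it was -2.25 and passed (edgeR, adjusted p = 0.0250), and without WT3 it was -1.44 (edgeR, adjusted p = 0.204). *Gpc6*, glypican-6, is a relative of *Gpc4* in sequence and lies on the plus strand at chr14:116925315-117976544 (ENSMUSG00000058571). Its level was 0.760, 2.97, 1.99, 0.520 and 3.02 FPKM in WT1 to WT5, and 0.7097, 0.394, 0.174, 1.11 and 0.190 FPKM in TG1 to TG5. The groups overlapped through WT1 and WT4. The log2 fold change was -1.85 with a 95% interval from -3.28 to -0.43 (edgeR, Benjamini-Hochberg adjusted p = 0.102). Without WT4 it was -2.09 and passed (edgeR, adjusted p = 0.0485).

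*Gpc4* and *Gpc2* lay close to equal in the groups. *Gpc4*, glypican-4, modulates Wnt and fibroblast growth factor signals and lies on the minus strand at X:52053021-52165252 (ENSMUSG00000031119), with 107173 bases between it and *Gpc3*. Its level was 10.4, 8.12, 5.54, 8.18 and 7.33 FPKM in WT1 to WT5, and 9.88, 7.61, 5.67, 7.67 and 4.87 FPKM in TG1 to TG5. Its log2 fold change was -0.15 with a 95% interval from -0.65 to 0.35 (edgeR, Benjamini-Hochberg adjusted p = 0.716). The interval leaves room for a decrease or an increase of less than 2-fold. *Gpc2*, glypican-2, is best known from developing neurons and lies on the minus strand at chr5:138273655-138280005 (ENSMUSG00000029510). Its level was 0.780, 1.47, 3.13, 0.906 and 1.66 FPKM in WT1 to WT5, and 1.97, 1.05, 1.01, 2.16 and 0.752 FPKM in TG1 to TG5. The fit gave a log2 fold change of -0.20 with a 95% interval from -1.17 to 0.77 (edgeR, Benjamini-Hochberg adjusted p = 0.812). Without WT3 it was 0.18, so its direction rested on 1 mouse.

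*Sdc4* encodes syndecan-4, which sits at focal adhesions and works with integrins. The gene (ENSMUSG00000017009) lies on the minus strand at chr2:164424247-164443887. Its level was 56.6, 77.1, 49.1, 48.5 and 53.1 FPKM in WT1 to WT5, and 38.5, 34.03, 37.8, 41.3 and 36.1 FPKM in TG1 to TG5. The highest HSD17B1TG mouse, TG4, lay under the lowest WT mouse, WT4. The coefficient of variation was 7.29% in HSD17B1TG and 20.7% in WT. The WT value includes WT2 at 77.1 FPKM, which stood apart from the other WT mice at 48.5 to 56.6 FPKM, so the contrast in spread rests on 1 mouse. The means were 37.5 ± 2.73 FPKM in HSD17B1TG and 56.9 ± 11.8 FPKM in WT (SD, n = 5 each). The log2 fold change was -0.61 with a standard error of 0.146 and a 95% interval from -0.93 to -0.28 (edgeR quasi-likelihood test, Benjamini-Hochberg adjusted p = 0.0405). The two-sided exact permutation test gave p = 0.00794. The adjusted p was under 0.05 without TG1, TG3 or WT4, and it rose to between 0.0633 and 0.0990 without any 1 of the other 7 mice, with log2 fold changes from -0.68 to -0.49. With no filter on low counts it was 0.0518.

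The promoter of *Sdc4*, the syndecan that passed the test, is shown beside that of *Sdc1*, a syndecan of like level that did not. Each is the 250 bases before the gene's RefSeq start, on the strand of the gene, in GRCm38.p6. Capitals mark the GC box GGGCGG and the letters GGTCA, a single arm of the estrogen response element, each searched on both strands.
Sdc4 chr2:164443189-164443438 minus strand: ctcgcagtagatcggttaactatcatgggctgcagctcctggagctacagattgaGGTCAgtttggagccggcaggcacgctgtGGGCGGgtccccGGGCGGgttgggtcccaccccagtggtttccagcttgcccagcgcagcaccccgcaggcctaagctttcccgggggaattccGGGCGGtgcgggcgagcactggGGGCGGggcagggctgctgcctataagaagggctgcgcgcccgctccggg
Sdc1 chr12:8771146-8771395 plus strand: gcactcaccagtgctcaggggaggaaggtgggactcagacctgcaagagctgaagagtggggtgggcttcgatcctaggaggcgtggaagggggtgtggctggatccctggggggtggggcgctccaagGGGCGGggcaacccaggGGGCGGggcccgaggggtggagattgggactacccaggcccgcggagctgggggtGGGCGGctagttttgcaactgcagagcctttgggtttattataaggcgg
The RefSeq start of *Sdc4* lies 699 bases inside the gene as the table places it, and that of *Sdc1* 73 bases inside. The *Sdc4* window holds 4 GC boxes, which begin at -166, -154, -72 and -50 from the start, and 1 arm GGTCA at -195. The *Sdc1* window holds 3 GC boxes, at -121, -104 and -49, and the letters GGTCA are not in it. The window of *Gpc4*, which did not pass the test either, holds them at -170. Of 32851 RefSeq promoters of the same length, 32.7% hold the GC box and 35.2% the letters GGTCA. RefSeq windows were at hand for 6 of the 9 genes, those of *Gpc2*, *Gpc3*, *Gpc4*, *Sdc1*, *Sdc3* and *Sdc4*. The full estrogen response element, a palindrome of that arm with 3 bases between, is in none of these 6, and 0.0639% of all promoters hold it. A match of letters is a description of the sequence, and binding was not measured.

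*Sdc1* encodes syndecan-1, the main syndecan of epithelia and also a marker of plasma cells. The gene (ENSMUSG00000020592) lies on the plus strand at chr12:8771323-8793715. Its level was 73.3, 45.2, 30.02, 34.3 and 42.5 FPKM in WT1 to WT5, and 17.7, 40.7, 64.0, 28.4 and 38.0 FPKM in TG1 to TG5. The highest and the lowest mouse were WT1 and TG1, and the others were mixed. Its log2 fold change was -0.26 with a 95% interval from -0.99 to 0.47 (edgeR, Benjamini-Hochberg adjusted p = 0.663).

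*Sdc2* encodes syndecan-2, a syndecan of mesenchymal cells, and lies on the plus strand at chr15:32920723-33034935 (ENSMUSG00000022261). Its level was 22.9, 26.5, 16.9, 19.3 and 27.8 FPKM in WT1 to WT5, and 20.99, 14.4, 14.5, 24.8 and 17.5 FPKM in TG1 to TG5. The lowest mice, TG2 and TG3, were transgenic and the highest, WT5 and WT2, were WT. The fit gave a log2 fold change of -0.31 with a 95% interval from -0.74 to 0.13 (edgeR, Benjamini-Hochberg adjusted p = 0.354).

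*Sdc3* encodes syndecan-3, known from nerve and muscle, and lies on the plus strand at chr4:130792537-130826319 (ENSMUSG00000025743). Its level was 16.1, 11.6, 16.5, 25.7 and 13.8 FPKM in WT1 to WT5, and 42.5, 12.2, 11.004, 20.03 and 7.22 FPKM in TG1 to TG5. The highest value, in TG1, and the lowest, in TG5, were both in transgenic uteri. The log2 fold change was 0.15 with a 95% interval from -0.80 to 1.10 (edgeR, Benjamini-Hochberg adjusted p = 0.860). Without TG1 it was -0.41, and the group means in FPKM, 18.6 ± 14.2 in HSD17B1TG and 16.7 ± 5.35 in WT, lay within the spread of the mice.

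**Figure D2:**
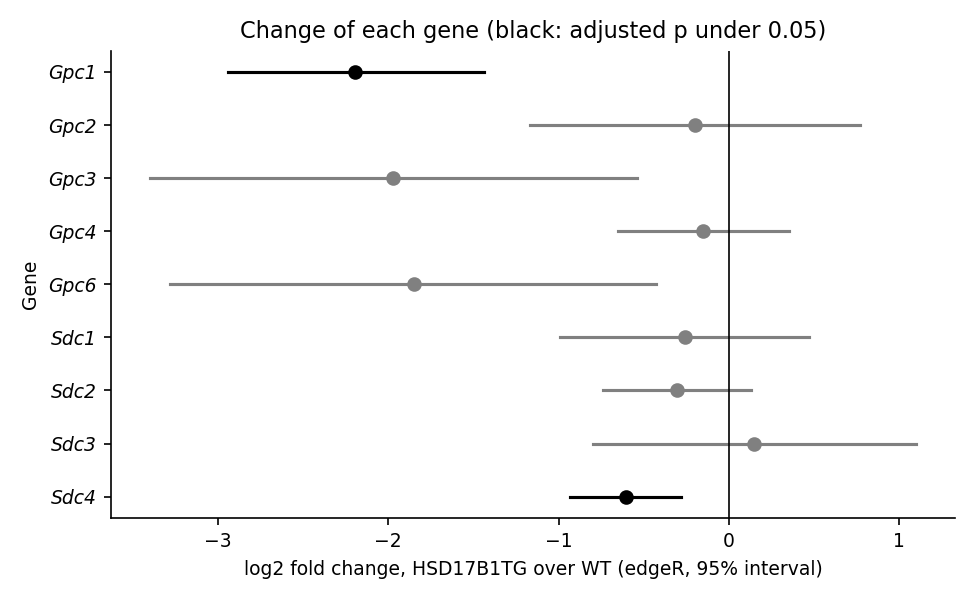
Fitted log2 fold change of each gene, HSD17B1TG over WT, with its 95% interval (edgeR); black marks an adjusted p under 0.05 and grey the rest. The intervals of *Gpc1*, *Gpc3*, *Gpc6* and *Sdc4* lie under 0 before adjustment for the number of genes, and those of the other 5 genes include 0.

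The exons of 3 of the 9 genes overlap exons of other genes, and the strand setting of the counting is not given. *Gpc1* shares bases with *Ankmy1* on the other strand, which had a mean of 0.0427 FPKM over the 10 mice. *Gpc2* overlaps Gm43720 on the same strand, at 0.0109 FPKM, and *Sdc3* overlaps the antisense genes Gm12970, at 0.0715 FPKM, and Gm26716, for which no value was used. *Mir149* lies within *Gpc1* and its host's value says nothing of the mature miRNA.

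Levels can be set side by side between genes as FPKM, which is per length. In WT the order of mean FPKM was *Sdc4*, *Sdc1*, *Gpc1*, *Sdc2*, *Sdc3*, *Gpc3*, *Gpc4*, *Gpc6* and *Gpc2*. *Sdc1* exceeded *Gpc1*, and *Gpc4* exceeded *Gpc6*, in 5 of 5 WT mice. Each other neighbour in that order exceeded the next in 2 to 4 of 5 mice, so that those places are not settled. In HSD17B1TG the order was *Sdc1*, *Sdc4*, *Sdc3*, *Sdc2*, *Gpc4*, *Gpc1*, *Gpc3*, *Gpc2* and *Gpc6*. *Sdc2* exceeded *Gpc4*, *Gpc3* exceeded *Gpc2* and *Gpc2* exceeded *Gpc6* in 5 of 5 transgenic mice, and the other neighbours did so in 1 to 4. *Gpc1* thus held place 3 in WT and place 6 in HSD17B1TG, where all 4 syndecans and *Gpc4* had higher means.

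Summed over the 5 measured glypicans, the level was 51.5 ± 19.3 FPKM in WT and 18.4 ± 4.53 FPKM in HSD17B1TG (SD, n = 5 each). The WT sums ran from 21.7 FPKM in WT4 to 70.3 FPKM in WT3, and the transgenic sums from 12.0 FPKM in TG5 to 23.5 FPKM in TG1, so that WT4 lay within the transgenic range. *Gpc1* made up 51.9% ± 9.51 of the WT sum and 33.6% ± 10.7 of the transgenic sum. *Gpc4* made up 18.9% ± 11.9 and 38.8% ± 2.54. Among the transgenic uteri the share of *Gpc4* was between 36.1% and 42.0%, and in WT it was between 7.89% and 37.7%, with WT4 at the top. These sums describe the members and were not tested.

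The 4 syndecans summed to 141 ± 23.3 FPKM in WT and 112 ± 12.1 FPKM in HSD17B1TG, with ranges of 113 to 169 and 98.8 to 127 FPKM. *Sdc4* made up 40.4% ± 5.60 of this sum in WT and 33.6% ± 2.83 in HSD17B1TG. The ratio of the syndecan sum to the glypican sum was 3.24 ± 1.68 in WT and 6.41 ± 1.60 in HSD17B1TG. It ran from 1.60 to 5.88 in WT and from 5.09 to 8.24 in HSD17B1TG, and WT4 gave the highest WT ratio.

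**Figure D3:**
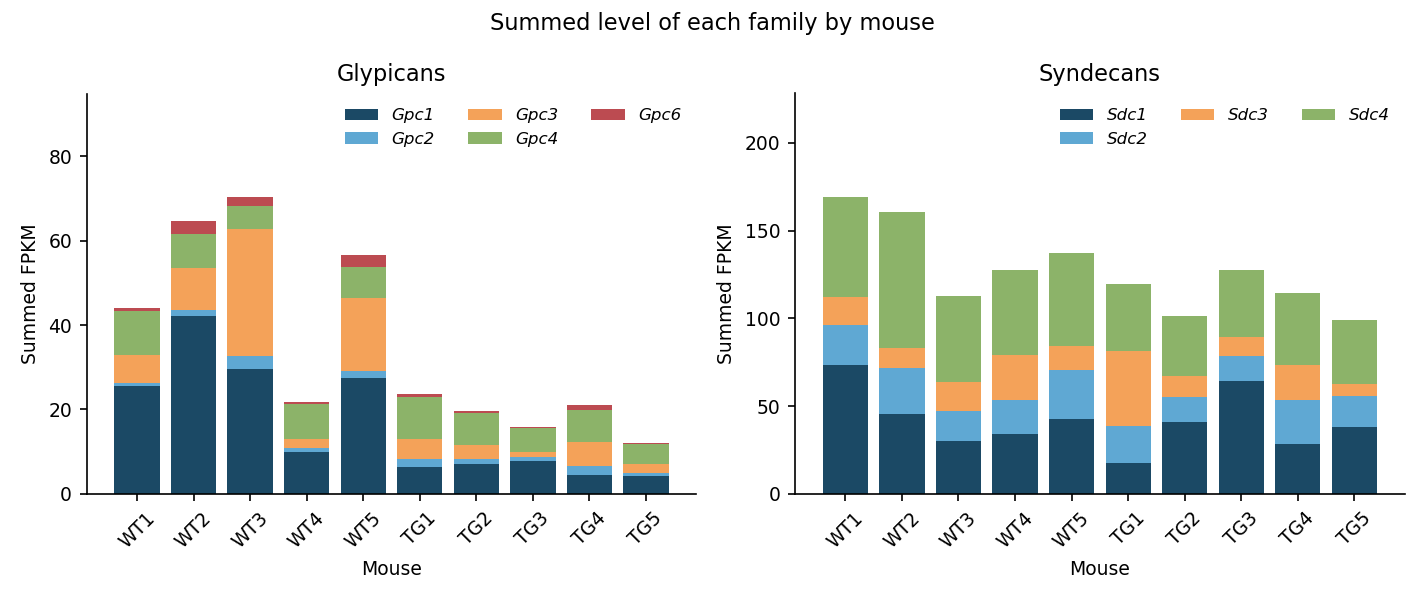
Summed FPKM of the 5 measured glypicans (left) and the 4 syndecans (right) in each mouse, with 1 bar per mouse divided by gene, both axes starting at 0. The glypican bars of WT1, WT2, WT3 and WT5 are taller than every transgenic bar, and WT4, at 21.7 FPKM, is not, while the syndecan bars overlap.

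Whether the members of a family moved apart from each other was examined through the log2 ratio of FPKM for all 16 pairs within a family, 10 of glypicans and 6 of syndecans. By the two-sided exact permutation test, 4 of 16 ratios differed at an unadjusted p under 0.05 and 0 of 16 after Benjamini-Hochberg adjustment over the 16. The largest of these 4 differences was that of *Gpc1* to *Gpc2*, where the log2 ratio was 1.95 lower in HSD17B1TG (means 2.17 ± 0.81 and 4.13 ± 0.80 in HSD17B1TG and WT, exact permutation p = 0.00794, adjusted p = 0.0635). The ratio of *Gpc1* to *Gpc4* was lower by 1.92 on the log2 scale (exact permutation p = 0.0159, adjusted p = 0.0847). The other 2 were the ratios of *Gpc2* to *Gpc6* and to *Gpc3*, higher in HSD17B1TG by 1.75 and 1.56 on the log2 scale (exact permutation p = 0.00794 and 0.0318, adjusted p = 0.0635 and 0.127). No pair of syndecans was among these 4.

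Markers of the cell types that a uterus holds were set beside the members. The list of 10 stromal markers had a mean log2 CPM between 7.29 and 9.06 in HSD17B1TG and between 8.80 and 9.15 in WT. Of its fitted changes, 8 of 10 were negative, 5 of them at an unadjusted p under 0.05 by edgeR. The called genes were 3, all down, *Pdgfra*, *Col3a1* and *Thy1*. The list of 11 epithelial markers lay between 7.003 and 9.26 in HSD17B1TG and between 6.57 and 8.05 in WT, with 11 of 11 fitted changes positive and 0 called by edgeR (8 at an unadjusted p under 0.05), where DESeq2 called 3 up and limma voom 7. The list of 10 smooth muscle markers lay between 7.06 and 9.87 and between 5.90 and 9.46, and 10 of 10 fitted changes were positive, with 0 at an unadjusted p under 0.05. The list of 10 endothelial markers lay between 3.68 and 5.54 in HSD17B1TG and between 4.74 and 5.94 in WT, with 8 of 10 fitted changes negative, a median log2 fold change of -0.78 against -0.81 for the stromal list, and 0 called by edgeR (5 lower and 1 higher at an unadjusted p under 0.05), where DESeq2 called 2 down and limma voom 3. Of 9 measured leucocyte markers, 2 were called up, *Laptm5* and *Cd68*, while 6 of 9 fitted changes were negative, with a median log2 fold change of -0.41. Of these, *Ptprc*, *Cd52* and *Coro1a* had an unadjusted p under 0.05 by edgeR, and DESeq2 called 2 of the 9 genes down and limma voom 1. The leucocyte list lay between 4.61 and 5.10 in HSD17B1TG and between 4.45 and 5.41 in WT. The 3 measured adipocyte markers lay between 4.15 and 5.90 and between 1.23 and 4.17, and *Lipe* was called up, while *Adipoq*, *Plin1*, *Cidec* and *Lep* of that list were too low to be tested. The 6 measured markers of B and plasma cells lay between 1.51 and 2.86 in HSD17B1TG and between 1.22 and 3.10 in WT. The 4 measured Schwann cell and nerve markers lay between 2.32 and 3.29 in HSD17B1TG and between 0.76 and 1.93 in WT, and the 7 mesothelial markers between 4.11 and 6.01 and between 0.97 and 4.98. The part of all these cells in the levels of *Gpc1*, *Sdc4* and the other members was not tested.

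The 27 differences of the 9 members from the stromal, epithelial and smooth muscle means were computed after the data were seen, and 0 of 27 passed the exact permutation test after Benjamini-Hochberg adjustment over them, with a smallest adjusted p of 0.122 and 8 of 27 at an unadjusted p under 0.05. Each is given as HSD17B1TG minus WT. The stromal mean itself differed between HSD17B1TG and WT by -0.87, the epithelial mean by 1.20 and the smooth muscle mean by 0.91 in log2 CPM. These shifts enter every such difference. Relative to the stromal mean, *Gpc1* differed by -1.22 in log2 CPM (exact permutation p = 0.0635), against -2.09 without subtraction. Relative to the epithelial and the smooth muscle means it differed by -3.29 and by -3.0 (exact permutation p = 0.0159 and 0.0318). *Gpc4* and *Sdc3*, at -0.17 and -0.09 without subtraction, differed by 0.70 and 0.78 relative to the stromal mean (exact permutation p = 0.0159 and 0.0238). *Sdc4* differed by 0.28 relative to the stromal mean (exact permutation p = 0.421) and by -1.79 relative to the epithelial mean (exact permutation p = 0.0238). *Sdc1*, at -0.31 without subtraction, differed by -1.52 relative to the epithelial mean (exact permutation p = 0.0238), where the differences of the 9 members ran from -3.29 to -1.29. The stromal mean was inside the WT range in TG1, at 9.06, and under every WT mouse in TG2 to TG5, at 7.29 to 8.32. *Gpc1* was under the lowest WT mouse, at 9.95 FPKM, in all 5 transgenic mice, at 4.27 to 7.70 FPKM. The part of stromal cells in the *Gpc1* levels was not tested. Within the stromal list the genes of TG1 were split, with *Pdgfra*, *Col1a1* and *Col3a1* under every WT mouse and *Dcn*, *Lum*, *Col6a3* and *Pdpn* above every WT mouse. *Sdc3* was highest in TG1, WT4 and TG4, the mice with the highest smooth muscle means of 9.87, 9.46 and 8.87 in log2 CPM, but WT3, with the lowest such mean of 5.90, came next in *Sdc3* at 16.5 FPKM.

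**Figure D4:**
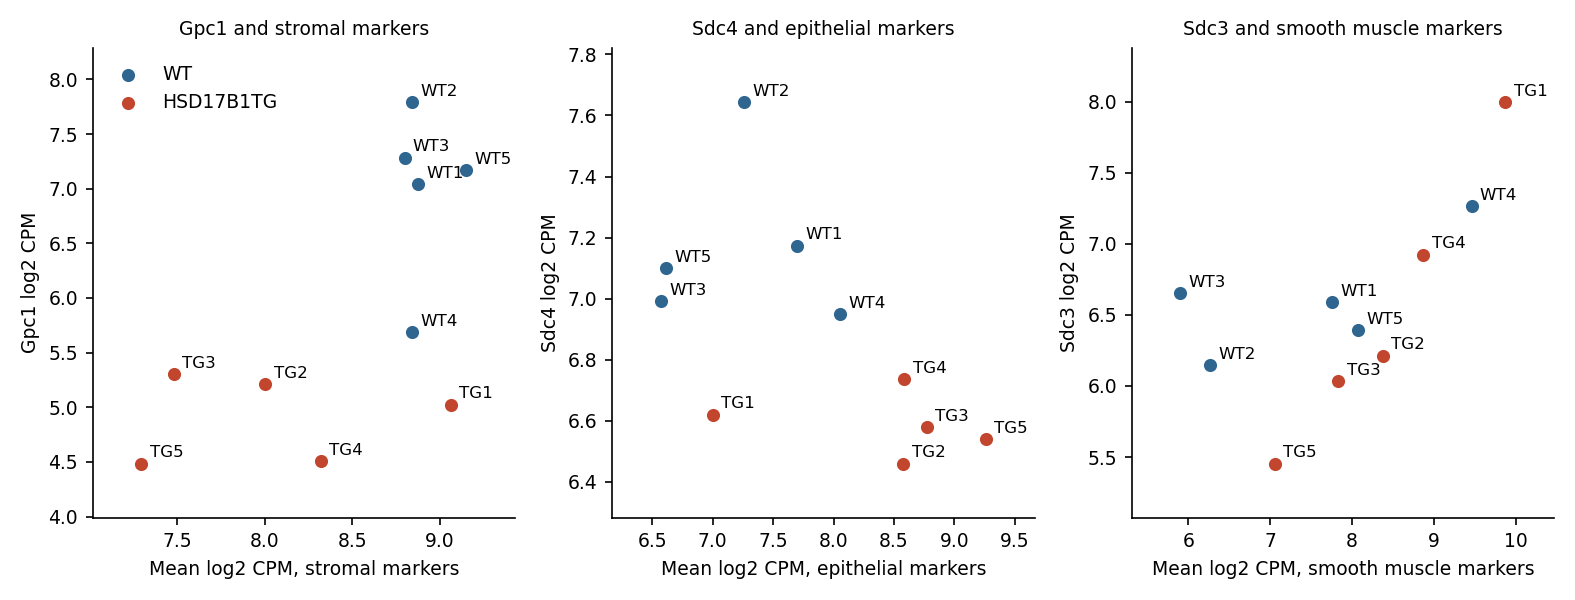
Log2 CPM of *Gpc1*, *Sdc4* and *Sdc3* in each mouse against the mean log2 CPM of the stromal, epithelial and smooth muscle markers, with 1 named point per mouse, coloured by group. All 5 transgenic mice lie under the WT mice in *Gpc1* and in *Sdc4*. TG1 has a stromal mean in the WT range, from a list whose genes are split in that mouse, and TG2 to TG5 lie under that range. The epithelial mean of TG1, 7.003, lies among those of WT, and those of TG2 to TG5 lie above them. The part of the cell types was not tested.

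The genes whose levels over the 10 mice lay closest to those of *Gpc1* were sought among 14314 protein-coding genes, by the root mean square difference of centred log2 CPM. *Gpc1* itself varied with a root mean square of 1.18 over these mice. The nearest were *Pth1r*, the receptor of parathyroid hormone, at 0.21, *Oaf* at 0.22 and *Sfxn2*, a mitochondrial carrier, at 0.23. Their log2 fold changes were -2.32, -2.16 and -1.89. *Pth1r* had 5.83 ± 1.45 FPKM in HSD17B1TG and 28.9 ± 17.1 FPKM in WT, *Oaf* 5.41 ± 1.97 and 24.1 ± 9.80, and *Sfxn2* 2.23 ± 0.529 and 8.27 ± 2.97 (SD, n = 5 each). Both the group difference and the low value of WT4 enter this likeness.

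The core proteins depend on enzymes that build their chains. Of 101 tested genes in 9 lists of heparan sulfate biology, 1 was called up and 10 were called down, against 2.16% and 2.08% of all genes tested. The median log2 fold change was -0.09 against 0.00. The lists were chosen with earlier results of these data known, so these counts describe the named genes and do not test the lists. Without WT4 the counts were 2 and 18, and without TG4, TG5 or WT2 they were 0 and 2. Of 11 genes for the linker to the core protein and for the supply of precursors, 1 was called down. This was *Pxylp1*, a phosphatase that clears a phosphate from the linker, with 2.40 ± 0.604 FPKM in HSD17B1TG and 5.94 ± 2.30 in WT, and a log2 fold change of -1.32 (edgeR, Benjamini-Hochberg adjusted p = 0.0345). *B3gat3*, which adds the last sugar of the linker and is named after its value was seen, was higher by 0.57 on the log2 scale with an adjusted p of 0.0494 by edgeR and a fold change under 2. Of the 5 genes for chain elongation, 0 were called by edgeR, DESeq2 or limma, and 3 had an unadjusted p under 0.05 by edgeR, all with negative changes. *Extl3*, which starts the chain, had the smallest p of them, with a log2 fold change of -0.78 (edgeR, Benjamini-Hochberg adjusted p = 0.0509). Its level was 25.2, 20.4, 20.8, 15.7 and 21.9 FPKM in WT1 to WT5, and 18.1, 11.2, 11.3, 12.3 and 7.97 in TG1 to TG5, where only TG1 reached the WT range.

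The genes that modify, edit or release the chains did not pass all thresholds by edgeR. Of 10 tested genes for sulfation and epimerization, 0 were called by edgeR, DESeq2 or limma, and 3 had an unadjusted p under 0.05 by edgeR. The median log2 fold change was -0.07. The smallest p was that of *Glce*, the epimerase of the chain, at a log2 fold change of -0.61 (edgeR, adjusted p = 0.0598). Of 3 genes that edit or cut the chains outside the cell, 0 were called by edgeR, 1 had an unadjusted p under 0.05, and DESeq2 and limma voom each called 1 down. The smallest p by edgeR was that of *Sulf1*, a sulfatase, at a log2 fold change of -1.64 (edgeR, adjusted p = 0.0528). Of 13 genes that can release the ectodomain or the lipid anchor, 0 were called by edgeR and 4 had an unadjusted p under 0.05, with a median log2 fold change of 0.09. DESeq2 called 1 up and 1 down, and limma voom 1 up and 2 down. *Adam9*, a membrane protease, had the smallest p, at a log2 fold change of 0.88 (edgeR, adjusted p = 0.0551).

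Among the cytoplasmic partners of the syndecan tail, 9 of 10 fitted changes were positive, against 8525 of 16993 over all genes tested. The median log2 fold change was 0.54, with 5 genes higher at an unadjusted p under 0.05 by edgeR. In this list and in the epithelial list, TG1 had the lowest and TG5 the highest mean of the transgenic mice. In both, WT3 was the lowest and WT4 the highest of WT. The part of epithelial cells was not tested. By edgeR 1 gene was called up, and limma voom called 2 up. The gene called by edgeR was *Sdcbp2*, syntenin-2, which binds the tail through PDZ domains. Its level was 2.33, 2.63, 0.709, 7.72 and 3.80 FPKM in WT1 to WT5, and 7.25, 21.2, 15.1, 15.9 and 38.6 FPKM in TG1 to TG5. The transgenic mice lay above WT apart from TG1, which fell below WT4. Its log2 fold change was 2.51 with a standard error of 0.594 (edgeR, Benjamini-Hochberg adjusted p = 0.0391). The adjusted p stayed under 0.05 in 3 of 10 fits with a mouse left out.

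Of 9 tested genes for other proteins that carry heparan sulfate, 8 fitted changes were negative, with a median log2 fold change of -0.77, and 2 were called down. *Col18a1*, the basement membrane collagen XVIII, had 65.5, 73.1, 125, 22.1 and 59.4 FPKM in WT1 to WT5, and 13.7, 12.1, 12.9, 12.2 and 8.03 FPKM in TG1 to TG5. No transgenic mouse reached a WT mouse, and WT4 was again the lowest of WT. The fit gave a log2 fold change of -2.56 (edgeR, Benjamini-Hochberg adjusted p = 0.0171). *Cd44*, a receptor of hyaluronan of which some isoforms carry heparan sulfate, was lower by a log2 fold change of -1.11 (edgeR, adjusted p = 0.0414).

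Among 25 tested growth factors and morphogens that bind heparan sulfate, 4 were called down by edgeR, and 0 were called up by edgeR, DESeq2 or limma (3 higher at an unadjusted p under 0.05 by edgeR), with a median log2 fold change of -0.17. *Fgf10*, a stromal fibroblast growth factor, had 3.04 to 6.29 FPKM in WT and 0.571 to 1.42 FPKM in HSD17B1TG, with a log2 fold change of -2.33 (edgeR, adjusted p = 0.0164). *Wnt5a*, a Wnt of the stroma, had 20.5 to 62.6 FPKM in WT and 3.35 to 13.1 FPKM in HSD17B1TG, with a log2 fold change of -2.27 (edgeR, adjusted p = 0.0246). The groups did not overlap for either gene. *Hgf*, hepatocyte growth factor, overlapped through WT4 at 0.404 FPKM and had a log2 fold change of -2.86 (edgeR, adjusted p = 0.0270). *Ihh*, the hedgehog of the uterine epithelium that progesterone induces, had 0.841, 20.6, 18.6, 0.0794 and 3.48 FPKM in WT1 to WT5 and at most 0.759 FPKM in HSD17B1TG, with a log2 fold change of -5.28 (edgeR, adjusted p = 0.0498). WT4 lay within the transgenic range and WT1 just above it.

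Among 15 receptors with which heparan sulfate acts, 3 were called down and 0 up by edgeR (1 higher at an unadjusted p under 0.05, and 1 called up by limma voom), with a median log2 fold change of -0.16. *Fgfr4*, a receptor of fibroblast growth factors, had 0.561 to 5.16 FPKM in WT and 0.0909 to 0.405 FPKM in HSD17B1TG, with a log2 fold change of -3.37 (edgeR, adjusted p = 0.0225). *Fzd2*, a Wnt receptor, had 17.9 to 38.9 FPKM in WT and 6.30 to 16.4 FPKM in HSD17B1TG, with a log2 fold change of -1.39 (edgeR, adjusted p = 0.0260). *Ptch1*, the hedgehog receptor and a target of that pathway, lay between 2.21 and 2.59 FPKM in HSD17B1TG and between 1.81 and 16.4 FPKM in WT, with WT4 under all transgenic mice and a log2 fold change of -2.05 (edgeR, adjusted p = 0.0436). When each mouse was left out in turn, *Col18a1* and *Fgf10* kept an adjusted p under 0.05 in 10 of 10 fits by edgeR. The other 9 called genes of these lists kept it in 1 to 6 of 10, *Ihh* in 1 and *Fgfr4* in 6, with the direction unchanged in all of these fits. *Ihh* moved to -6.51 without TG5 and to -4.69 without WT2, and *Fgfr4* to -2.75 without WT5, as log2 fold changes.

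**Figure D5:**
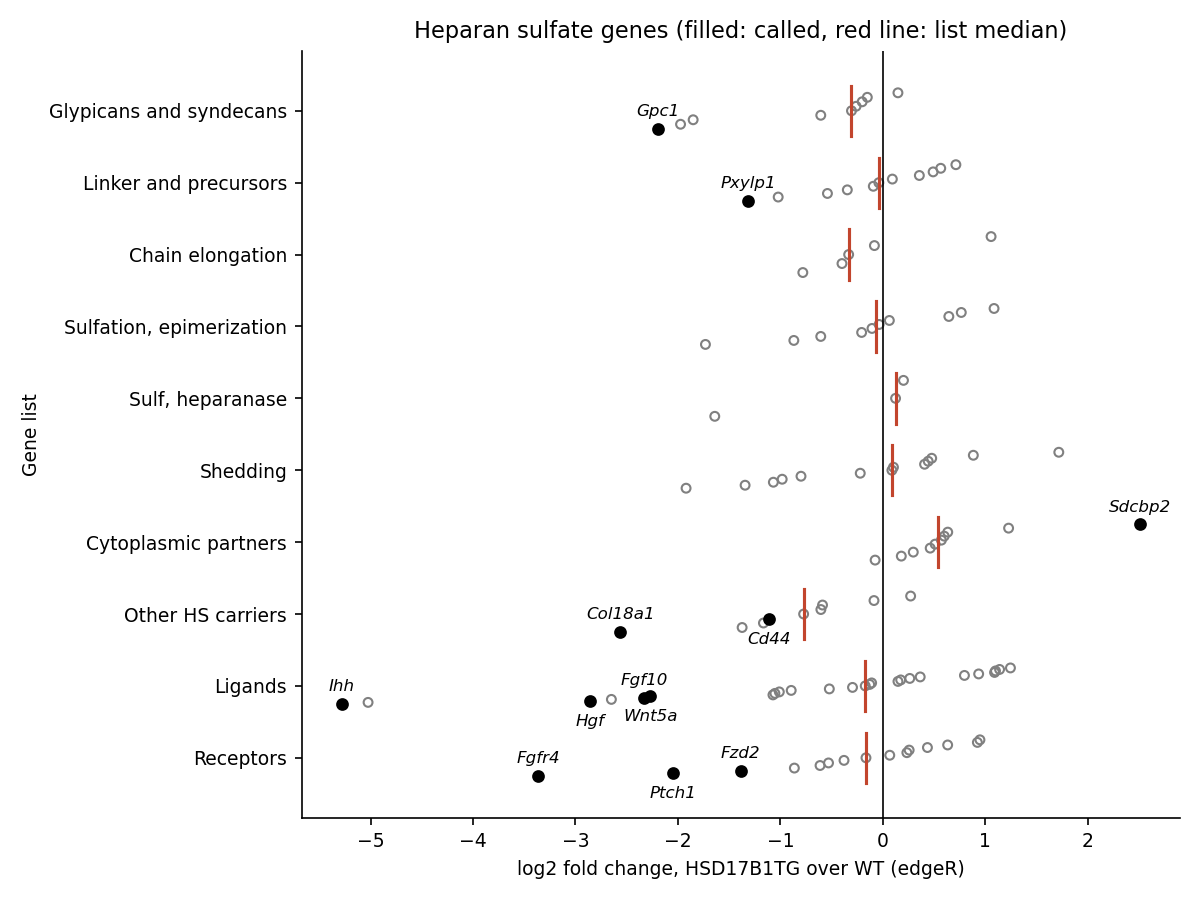
Fitted log2 fold change, HSD17B1TG over WT (edgeR), of each tested gene in the lists of heparan sulfate biology, with 1 row per list and 1 point per gene, filled where called, and a red line at the list's median. The called genes lie to the left of 0 except *Sdcbp2* at 2.51, and the list medians lie between -0.77 and 0.54.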

How the data were processed

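RNA was taken from whole uteri and sequenced as paired-end reads of 150 bases, with 1 library per mouse. The authors mapped the reads with HISAT2 2.0.5 to GRCm38 with the Ensembl 94 annotation. Which program counted them, and whether by strand, is not given in the sources used here. The authors deposited, for each gene and mouse, the raw count, a signal that is the count scaled by DESeq2 size factors, and the FPKM. The deposited log2 fold change and p-value columns hold the authors' comparison and were not used, nor were their tables of changed genes and enriched terms.

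Mice were grouped by the genotype in the labels. Counts were tested here with edgeR 4.0.16 in R 4.3.3 (filterByExpr, TMM, quasi-likelihood test, Benjamini-Hochberg adjustment over the 16993 genes tested), after the steps were tested on simulated data. Calls needed an adjusted p under 0.05, a change of more than 2-fold and, in at least 1 group, a mean above 1 FPKM. Single values were compared by the two-sided exact permutation test over 252 assignments of 10 mice, on log2(FPKM + 1) for members. Log2 CPM used a prior count of 2, and marker lists were averaged over their tested genes. DESeq2 1.42.0 and limma 3.58.1 served as alternatives, with other filters and with each mouse left out.

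The members and lists were chosen with earlier results of these data known. The genes named are all members, the called genes of each list (at most 4, or the gene with the smallest p where none was called), the 3 genes most like each called member, overlapping or neighbouring genes, and cell type markers. Promoters came from RefSeq on GRCm38.p6, and overlaps from GENCODE M21. The labels name no batch, so none was modelled.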

Additional observations from a re-analysis of the deposited data

Results flagged for a closer look

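Of 18 sets of 5 values, 1 for each member in each group, 1 held a mouse that stood apart. *Sdc4* was at 77.1 FPKM in WT2, the highest of the WT mice, whose others lay between 48.5 and 56.6 FPKM. Its gap to the next mouse was 0.714 of the group's range, against a critical ratio of 0.71 for 5 values, which chance passes in about 1 of 20 sets. Without WT2 the log2 fold change of *Sdc4* was -0.49 (edgeR, adjusted p = 0.0677).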

How the results depend on the processing

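*Gpc1* kept its direction in every alternative, with log2 fold changes from -2.23 to -1.91 under other tools, scalings and filters and from -2.40 to -1.99 with 1 mouse left out, and it lost its call without TG5 alone. *Sdc4* ranged from -0.69 to -0.57 and from -0.68 to -0.49, and kept an adjusted p under 0.05 in 6 of 7 and 3 of 10 of these. *Gpc3* and *Gpc6* passed with DESeq2 (adjusted p = 0.0155 and 0.0255), and *Gpc6* with limma voom (0.0483). Neither passed with limma on log2(FPKM + 1), where *Gpc3* was at -1.43 (adjusted p = 0.136) and *Gpc6* at -0.84 (0.110), and neither passed under the other scalings, filters and pseudocount with all mice. With 1 mouse left out, *Gpc2* ranged from -0.42 to 0.18, the latter without WT3, and *Sdc3* from -0.41, without TG1, to 0.35. *Sdc3* turned to -0.06 and -0.08 with limma on log2(FPKM + 1) and log2(FPKM + 0.1) and to -0.11 with limma voom. The cause was not tested.

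Members called down numbered 3 with DESeq2, 2 with limma voom and 2 by the adjusted p alone, and 0 to 3 with a mouse left out (0 without TG5, 3 without WT4). All genes called up numbered 906 with DESeq2, 1083 with limma voom, 568 by the adjusted p alone and 38 to 888 with a mouse left out. Genes called down numbered 666 with DESeq2, 665 with limma voom, 228 with limma on log2(FPKM + 1) and 27 to 666 with a mouse left out. Pathway genes called up numbered 2 with DESeq2, 4 with limma voom and 0 to 2 with a mouse left out. Those called down numbered 16 with limma voom, 6 with limma on log2(FPKM + 1) and 2 to 18 with a mouse left out. Marker genes called up numbered 11 and 16 with DESeq2 and limma voom, and those called down 11 and 12, against 1 to 12 and 0 to 12 with a mouse left out. Leaving out WT4 or TG1 raised the counts of all genes called in both directions, leaving out TG3 gave 367 up and 528 down, and leaving out TG2, TG4, TG5 or any of the other 4 WT mice lowered them. No paired analysis was possible because the labels of the groups share only 1 number, 10, which nothing ties to a litter, batch or day. With 5 mice a group, the 95% intervals of *Gpc2*, *Sdc1* and *Sdc3* reach -1.17, -0.99 and 1.10, so that a change near 2-fold in these genes lies within them.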
